A study of Mus musculus with 12 samples.

Results

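The miRNA genes from miR-290a to miR-295 form a cluster on mouse chromosome 7 that is transcribed as a single precursor in early embryonic cells. The 6 main 3p arms of this cluster are described here: mmu-miR-290a-3p, mmu-miR-291a-3p, mmu-miR-292a-3p, mmu-miR-293-3p, mmu-miR-294-3p as well as mmu-miR-295-3p, with the species prefix left out from here on. They were taken by name from the 1978 mature miRNAs counted in each library, and all 6 were present in the tables and passed the filter on low counts. Small RNA was sequenced from paused and control cells of the mouse embryonic stem cell line E14 (ESC) and from paused and control trophoblast stem cells (TSC), from which placental cells arise. Paused cells were treated to inhibit mTOR, the kinase that drives cell growth, which holds stem cells in a reversible dormancy like that of the embryo in diapause. Control cells are called WT in the labels. The labels give no inhibitor, dose, time, culture medium or name of the TSC line, and ESC are given as the single line E14, so a difference between ESC and TSC is one between these cultures.

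A miRNA hairpin is cut into a 5p and a 3p strand, and as a rule 1 of them is kept in the Argonaute complex while the other is degraded. The seed, the bases that follow the first base of the mature strand, pairs with target mRNAs and sets which of them are repressed. Most 3p arms of the cluster carry the AAGUGC core of the embryonic stem cell cycle miRNAs, which in mouse ESC repress inhibitors of the transition from G1 to S phase, among them Cdkn1a, and the miR-302 and miR-17 families carry related seeds.

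The mature strands show which members share a seed. RefSeq held 5 of the 6 on GRCm38.p6, all on the plus strand of chromosome 7, and miR-292a-3p is described by name. They are printed 5′ to 3′ with the seed, bases 2 to 8, in capitals.
miR-290a-3p, chr7:3218674-3218697: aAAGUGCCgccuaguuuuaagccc
miR-291a-3p, chr7:3218968-3218989: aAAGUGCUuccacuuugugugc
miR-293-3p, chr7:3220390-3220411: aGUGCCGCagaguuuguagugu
miR-294-3p, chr7:3220691-3220712: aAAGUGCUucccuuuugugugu
miR-295-3p, chr7:3220815-3220837: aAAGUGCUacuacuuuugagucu

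The seed AAGUGCU was shared by miR-291a-3p, miR-294-3p and miR-295-3p and, among the strands matched in RefSeq, by miR-302b-3p and miR-302d-3p. This list may be incomplete, since miR-292a-3p had no matched entry and other arms may lack one too. The 6 members of the miR-17 seed family carry AAGUGCU 1 base further in, at bases 3 to 9. The strands of miR-291a-3p and miR-294-3p were identical over their first 11 bases and differed at 3 of 22 positions. How the authors counted reads that match more than 1 arm is not given in the sources used here, so the split of counts between these 2 arms is uncertain to that extent.

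Of the hairpins, the 2 whose arm use departed furthest between groups are printed, with the 3p arm in capitals.
Mir290a, chr7:3218626-3218708: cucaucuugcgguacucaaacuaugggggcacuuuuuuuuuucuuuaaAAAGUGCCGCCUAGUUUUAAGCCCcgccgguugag
Mir293, chr7:3220343-3220422: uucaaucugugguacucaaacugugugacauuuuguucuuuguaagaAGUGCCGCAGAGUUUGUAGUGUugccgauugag
In the annotation the hairpins from Mir291a to Mir295 overlap an exon of Nlrp12, a gene on the opposite strand that spans 3218784 to 3249740 on chromosome 7, and Mir290a lies outside it.

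Of the 12 files, file 3 of each group repeated file 2 value for value over 1978 miRNAs, so the pair was used as 1 library, which left 8 libraries, 2 in each of the 4 groups. Total counts were 73574 and 61749 in paused ESC, 19266 and 13607 in control ESC, 23652 and 30487 in paused TSC, and 115492 and 18725 in control TSC. Depth therefore moved with the pause in ESC, and the first library of control TSC stood apart in depth. The labels do not say that libraries came from separate cultures, so p-values measure the spread between these samples, which may be technical. In bulk samples, fewer cells of a type and less RNA per cell cannot be told apart. The 5 TSC markers of the miR-322 and miR-503 hairpins and miR-351-5p summed to 54766 to 146865 CPM (counts set to a common library size by TMM) in TSC and 673 to 1023 CPM in ESC. The 5 ESC markers, the 3p arms of the miR-302 cluster with miR-367, summed to 74.8 and 61.9 CPM in paused ESC and 2051 and 3771 CPM in control ESC. They stood at 0 in 3 of 4 TSC libraries and at 76.4 CPM, from 6 counts, in the first library of control TSC. That sum thus did not set paused ESC apart from this TSC library.

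The 6 members together held 21.4% to 31.1% of all counts in each library. The share was 25.5% and 29.3% in paused ESC, 28.0% and 31.1% in control ESC, 26.2% and 27.2% in paused TSC, and 27.6% and 21.4% in control TSC. Values of paused and control cells overlapped in both cell types. The mean share was 27.4% ± 2.66 in paused ESC and 29.5% ± 2.21 in control ESC (SD, n = 2 each; exact two-sided permutation p = 0.67). It was 26.7% ± 0.697 in paused TSC and 24.5% ± 4.35 in control TSC (exact two-sided permutation p = 1). With 2 libraries against 2 the smallest p is 0.33.

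miR-294-3p was the most abundant member in both libraries of paused ESC, and miR-291a-3p in all 6 other libraries. miR-291a-3p ranked 6 and 5 among all miRNAs in paused ESC, 4 and 2 in control ESC, 2 and 2 in paused TSC, and 2 and 3 in control TSC. miR-294-3p ranked 3 and 3 in paused ESC, 6 and 5 in control ESC, 5 and 3 in paused TSC, and 4 and 6 in control TSC. miR-290a-3p was the rarest by far, at ranks 67 to 140, and reached the level that the filter asks for in both ESC groups, in 1 library of control TSC and in no library of paused TSC.

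**Figure D1:**
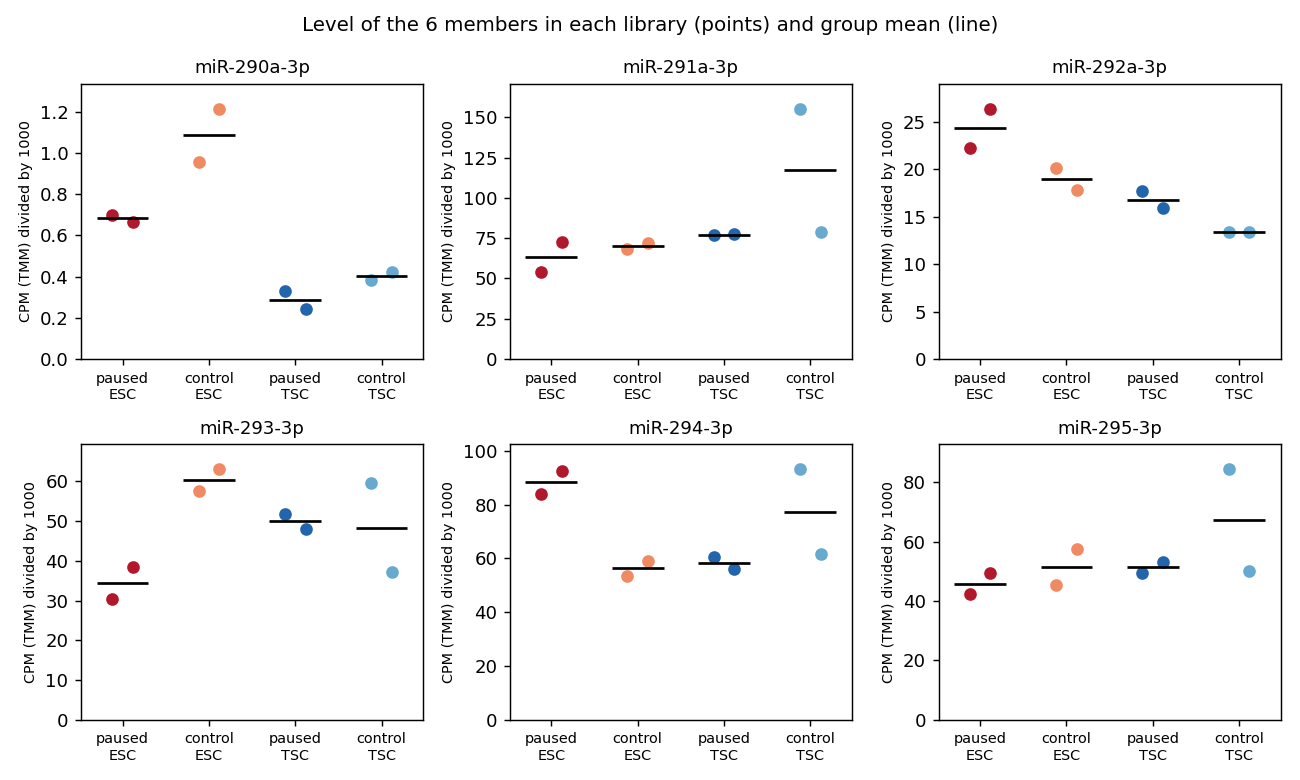
Level of each member in CPM, in units as each axis is labelled, on a linear axis from 0, with 1 point per library and a line at the mean of 2 libraries; each panel has its own axis. miR-293-3p was lower in both libraries of paused ESC (30514 and 38518 CPM) than in control ESC (57515 and 63013 CPM), and the first library of control TSC is the highest for miR-291a-3p, miR-294-3p and miR-295-3p.

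The make-up of the 3p pool differed between paused and control ESC. Taken as a percentage of the summed counts of the 6 members, which does not depend on how libraries are scaled, miR-294-3p held 35.9% and 33.0% in paused ESC and 21.8% and 21.9% in control ESC. miR-293-3p held 13.0% and 13.8% in paused ESC and 23.4% and 23.3% in control ESC. The 2 groups did not overlap in this percentage for any of the 6 members, so the lack of overlap does not set these 2 members apart. miR-294-3p was thus the largest member of the pool in paused ESC (34.5% ± 2.06), whereas miR-291a-3p was the largest in control ESC, at 27.2% ± 0.806 (SD, n = 2 each). There were 2.76 and 2.40 counts of miR-294-3p for each count of miR-293-3p in paused ESC, against 0.932 and 0.938 in control ESC. In TSC the same ratio was 1.16 and 1.17 in paused cells and 1.56 and 1.66 in control cells, so it was lower in both paused TSC libraries. The deeper libraries of paused ESC differ from control ESC in depth as well, and its part in these ratios was not tested.

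In TSC, miR-294-3p held 23.0% ± 0.844 of the pool in paused cells and 24.2% ± 1.85 in control cells, and miR-293-3p held 19.7% ± 0.799 in paused cells and 15.0% ± 0.488 in control cells (SD, n = 2 each). miR-291a-3p held 24.5% ± 1.94 in paused ESC, 27.2% ± 0.806 in control ESC, 30.4% ± 0.663 in paused TSC and 35.4% ± 4.00 in control TSC. It was thus the largest member in both TSC groups as well. miR-295-3p held 17.9% ± 0.323 in paused ESC, 19.9% ± 1.97 in control ESC, 20.2% ± 1.39 in paused TSC and 20.8% ± 0.0149 in control TSC (SD, n = 2 each). miR-292a-3p held 9.45% ± 0.0360 in paused ESC, 7.38% ± 1.14 in control ESC, 6.61% ± 0.384 in paused TSC and 4.41% ± 1.59 in control TSC. miR-290a-3p was below 0.5% of the pool in every group mean, at 0.268% ± 0.0428 in paused ESC and 0.419% ± 0.0419 in control ESC. The 3 members with the seed AAGUGCU together made up 77.2% and 76.6% of the pool in paused ESC against 68.0% and 69.7% in control ESC. In TSC they made up 72.7% and 74.4% in paused cells against 81.9% and 78.9% in control cells. This seed group thus took a larger part of the pool in paused than in control ESC and a smaller part in paused than in control TSC, with no overlap in either (exact two-sided permutation p = 0.33 in each, the smallest p that 2 against 2 allows).

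**Figure D2:**
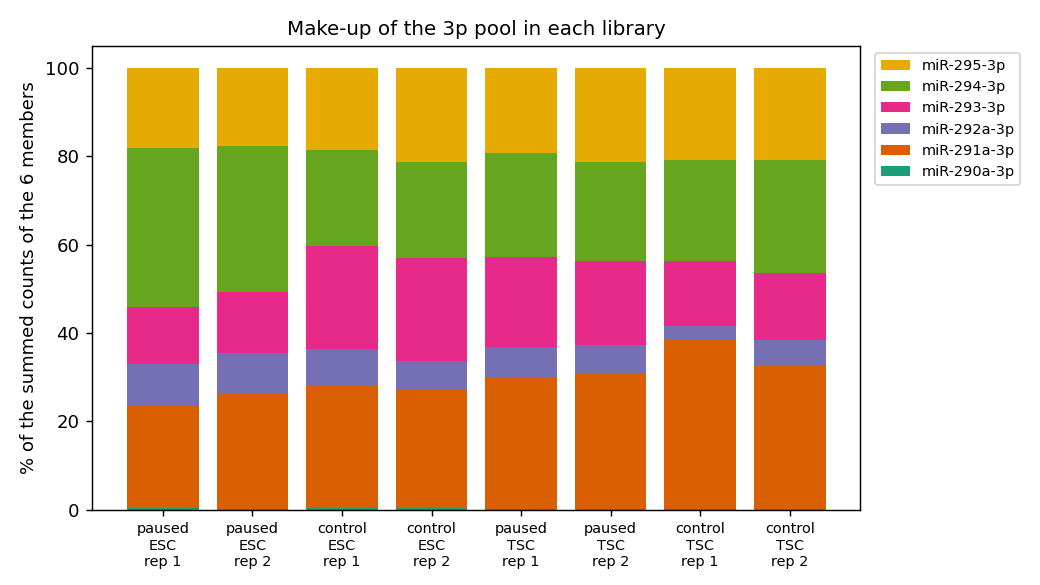
Stacked bars give the percentage of the summed counts of the 6 members that fell on each member, 1 bar per library. The band of miR-294-3p is widest and that of miR-293-3p narrowest in the 2 libraries of paused ESC, at 35.9% and 33.0% for miR-294-3p and 13.0% and 13.8% for miR-293-3p.

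The first comparison asks which members change when ESC are paused. miR-293-3p fell, at 34516 ± 5660 CPM in paused ESC against 60264 ± 3888 CPM in control ESC (SD, n = 2 each). Its log2 fold change was −0.80 ± 0.30 (SE), with an adjusted p of 0.0317 by edgeR's quasi-likelihood test and Benjamini-Hochberg adjustment over 206 miRNAs. It was the single member called among 6, where 27.7% of all tested miRNAs were called, 8.25% higher and 19.4% lower. The call was lost without 1 library of paused ESC, control ESC or paused TSC, 6 cases in all, with edgeR adjusted p of 0.0719 to 0.398, and kept without 1 library of control TSC, at 0.00179 or less. Over 17 alternatives the adjusted p of edgeR and DESeq2 ran from 0.000127 to 0.587, and 8 kept the call. The direction was negative in all 17 alternatives, with log2 values between −0.91 and −0.41.

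miR-294-3p had 84084 and 92319 CPM in paused ESC and 53595 and 59115 CPM in control ESC. Both paused libraries lay above both control libraries. The log2 fold change of miR-294-3p was 0.65 ± 0.30 (SE; 95% interval 0.06 to 1.23) with an edgeR adjusted p of 0.0924, which missed the threshold. It passed in 12 of the 17 alternatives, including DESeq2 at an adjusted p of 0.00457, with adjusted p from 0.000298 to 0.241 and a positive sign in all of them.

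miR-292a-3p had 22184 and 26359 CPM in paused ESC against 20098 and 17766 CPM in control ESC, a log2 fold change of 0.36 ± 0.31 (SE; edgeR adjusted p = 0.407). miR-290a-3p had 698 and 665 CPM in paused ESC, from 56 and 43 counts, against 957 and 1214 CPM in control ESC, from 21 and 19 counts (log2 fold change −0.65 ± 0.40; edgeR adjusted p = 0.234). These 2 members also showed no overlap between the groups, and neither was called. Of all tested miRNAs, 68.4% showed no overlap in this comparison.

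The 2 remaining members of the seed group lay within the spread of the libraries. miR-291a-3p had 54194 and 72395 CPM in paused ESC against 68088 and 71896 CPM in control ESC, and its log2 fold change had a 95% interval of −0.73 to 0.44. miR-295-3p had 42335 and 49300 CPM in paused ESC against 45347 and 57453 CPM in control ESC, with an interval of −0.75 to 0.42. Over the 6 members the median log2 fold change was −0.16, beside −0.03 over all tested miRNAs. The 5 blood cell markers summed to 5200 and 4610 CPM in paused ESC and 7839 and 9650 CPM in control ESC, with miR-223-3p and miR-451a at 0. The 5 fibroblast markers summed to 960 and 835 CPM in paused ESC and 1003 and 703 CPM in control ESC, with both arms of miR-199a at 0. The part of other cells in these changes was not tested.

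In TSC the question is the same, and none of the 6 members was called between paused and control cells by edgeR, where 18.9% of all tested miRNAs were called, 1.94% higher and 17% lower. At an unadjusted p under 0.05 miR-291a-3p alone of the 6 passed, and DESeq2 called none of the 6. miR-291a-3p had 76714 and 77415 CPM in paused TSC against 155349 and 78790 CPM in control TSC, a log2 fold change of −0.61 ± 0.30 (SE; edgeR adjusted p = 0.157). The first library of control TSC stood far above the other 3, and the second lay next to the paused libraries.

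miR-294-3p had 60387 and 56096 CPM in paused TSC against 93044 and 61696 CPM in control TSC. miR-295-3p had 49393 and 53253 CPM in paused TSC against 84267 and 50199 CPM in control TSC. miR-293-3p had 51914 and 47961 CPM in paused TSC against 59605 and 37138 CPM in control TSC. For all 3 the first library of control TSC was the highest of the 4, and of these 3 only miR-294-3p showed no overlap between the groups, as did 48.5% of all tested miRNAs.

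miR-292a-3p was the single member with higher CPM in both paused TSC libraries, at 17649 and 15906 CPM against 13338 and 13362 CPM in control TSC, with a log2 fold change of 0.33 ± 0.31 (SE; edgeR adjusted p = 0.551). miR-290a-3p had 331 and 242 CPM in paused TSC, from 8 counts in each library, against 382 and 421 CPM in control TSC, from 30 and 7 counts. The median log2 fold change of all tested miRNAs was −0.39 in this comparison and that of the 6 members −0.40, so relative to it miR-294-3p and miR-295-3p stood near 0. The summed TSC markers were lower in paused TSC, at 54766 and 68615 CPM against 146865 and 124655 CPM in control TSC, and their part in the members' values was not tested.

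The effect of the pause was also compared between the cell types. For miR-294-3p the difference of the log2 fold changes (ESC minus TSC) was 1.06 ± 0.42 (SE; 95% interval 0.23 to 1.89; edgeR adjusted p = 0.0472). It was the single member called with the settings used here, where 26.2% of all tested miRNAs were called, 14.6% higher and 11.7% lower, and the median difference over all of them was 0.33. The call is lost without either library of paused ESC, the first of control ESC, either of paused TSC or the first of control TSC, with log2 differences of 0.56 to 1.03 and edgeR adjusted p of 0.0565 to 0.201. For miR-293-3p the difference was −0.85 ± 0.43 (SE; edgeR adjusted p = 0.114), which missed the threshold. Over 16 alternatives miR-293-3p was called in 8, with adjusted p of edgeR or DESeq2 from 3.11e-05 to 0.952 and a negative sign in all, and miR-294-3p was called in 6, with adjusted p from 0.00292 to 0.251 and a positive sign in all. Without the first library of control TSC the difference was −1.41 for miR-293-3p (edgeR adjusted p = 3.11e-05) and 0.56 for miR-294-3p (edgeR adjusted p = 0.131). The differences of the other 4 members ran from −0.17 for miR-290a-3p to 0.46 for miR-291a-3p, each with a 95% interval that includes 0.

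**Figure D3:**
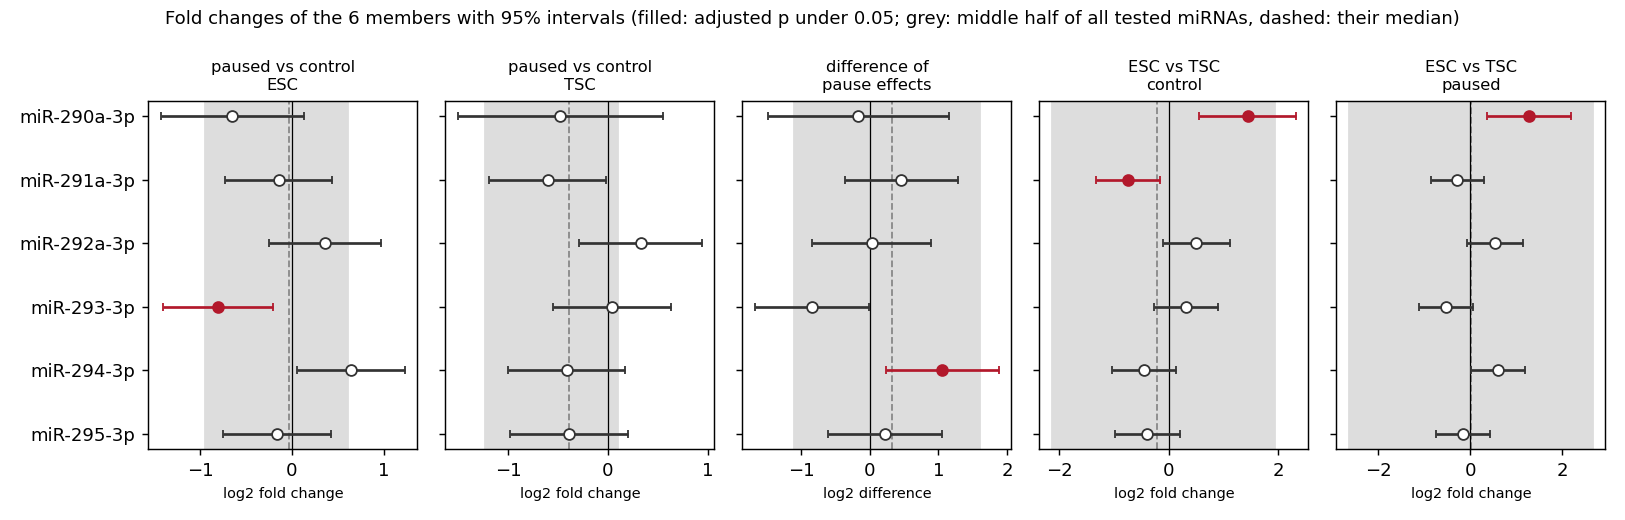
Log2 fold changes of the 6 members with 95% intervals in the 5 comparisons; filled red points passed an edgeR adjusted p of 0.05, the grey band runs from the lower to the upper quartile of all 206 tested miRNAs and the dashed line is their median. miR-293-3p is the filled point in ESC (−0.80) and miR-294-3p that in the difference of pause effects (1.06), and most members lie inside the grey band.

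The pause also went with a change in which arm of the miR-293 hairpin was counted. The 3p arm made up 40.0% (95% Wilson interval 38.8 to 41.3) and 45.8% (44.5 to 47.1) of the hairpin's counts in paused ESC. In control ESC it made up 68.0% (65.8 to 70.0) and 66.0% (63.5 to 68.3). The intervals cover counting error only and leave out the spread between libraries. The labels mention no molecular identifiers, so reads copied from the same molecule could not be told apart. The 5p arm was thus the more frequent one in both libraries of paused ESC, and the 3p arm in all 6 other libraries. In TSC the 3p arm made up 73.9% and 71.5% in paused cells and 64.1% and 68.1% in control cells.

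Tested with diffSpliceDGE of edgeR, which treats the arms of a hairpin as the exons of a gene, the ratio of 3p to 5p of miR-293 fell in paused ESC with a log2 change of −1.42 ± 0.40 (SE; adjusted p = 0.0219 over 40 hairpins). Of the 40 hairpins with both arms tested, 10% were called, and miR-293 had the smallest p. The 5p partner, miR-293-5p, had 3666 and 2950 counts in paused ESC against 595 and 509 in the shallower control ESC. Its log2 fold change was 0.62 ± 0.31 (SE; edgeR adjusted p = 0.121), which missed the threshold. The call of the ratio is lost without any 1 of the 4 ESC libraries, with log2 changes of −1.60 to −1.26 and adjusted p from diffSpliceDGE of 0.0504 to 0.119, and without the filter on low counts (adjusted p = 0.315, log2 change −1.42). Over all 11 alternatives its adjusted p ran from 2.31e-05 to 0.315.

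No other hairpin of the members was called for arm use in ESC. The log2 change of the 3p to 5p ratio was −0.62 for miR-290a, −0.60 for miR-291a, 0.10 for miR-292a, 0.49 for miR-294 and −0.55 for miR-295, with adjusted p from diffSpliceDGE of 0.250 to 0.802. In paused TSC against control TSC diffSpliceDGE called 0% of the 40 hairpins. The difference between ESC and TSC in the change of the miR-293 ratio was −1.91 ± 0.55 on the log2 scale (SE; adjusted p = 0.0369 from diffSpliceDGE), where 2.5% of hairpins were called, that is miR-293 alone. It is lost without the second library of paused ESC (adjusted p = 0.0519, log2 −2.08) and without the first or the second of control ESC (adjusted p = 0.117 and 0.104, log2 −1.85 and −1.98), in a range over 11 alternatives of 0.000732 to 0.571.

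**Figure D4:**
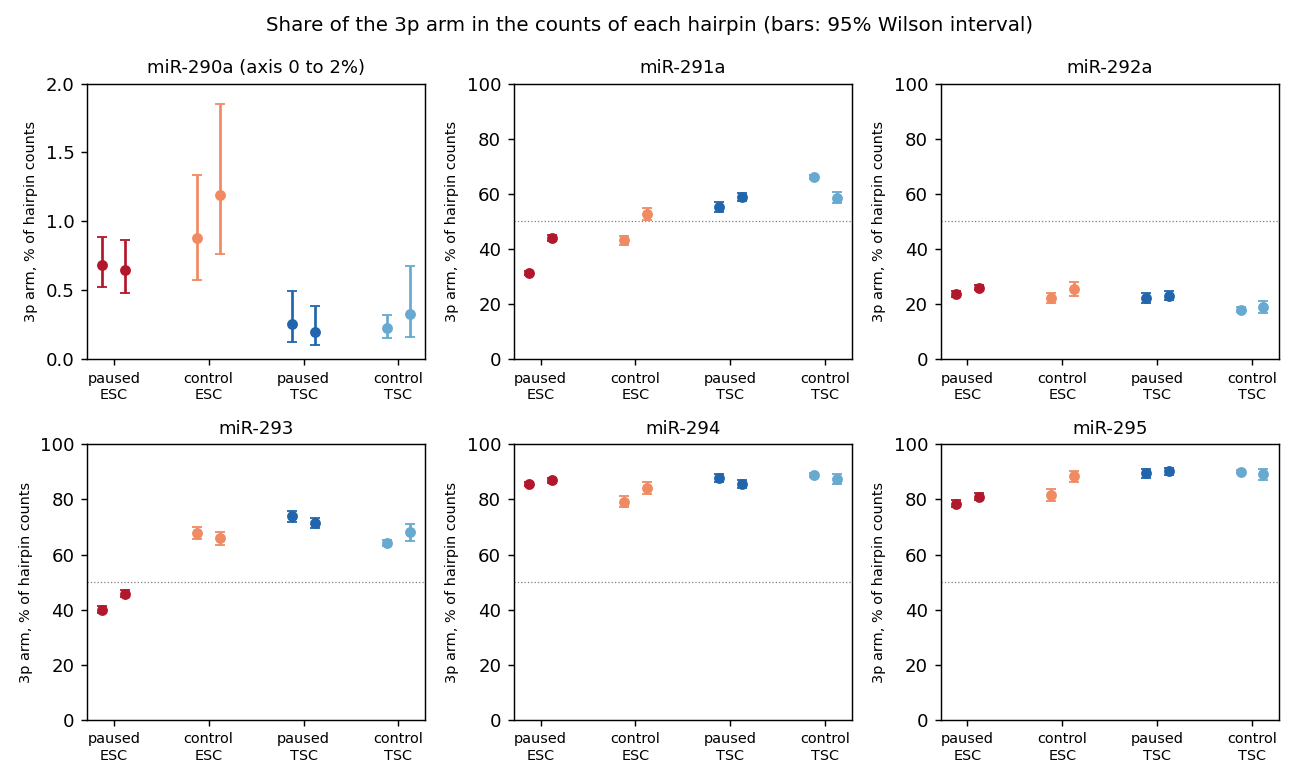
Percentage of each hairpin's counts that fell on its 3p arm, with 1 point per library and 95% Wilson intervals; the axis runs from 0 to 100% except for miR-290a, where it ends at 2%. The 2 libraries of paused ESC lie below 50% for miR-293 (40.0% and 45.8%), and the other 6 libraries lie above 60% for that hairpin.

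The hairpins fell into 3 kinds by their dominant arm. miR-294 and miR-295 were counted mainly as 3p, at 79.2% to 89.0% and 78.5% to 90.2% of their counts over all 8 libraries. miR-292a was counted mainly as 5p in every library, with 17.9% to 25.9% on the 3p arm. miR-290a was counted almost wholly as 5p, with 1.19% or less on miR-290a-3p in any library. miR-291a and miR-293 had the most even arms, and these were the hairpins in which the dominant arm differed between libraries. The 3p arm of miR-291a made up 31.3% and 43.9% in paused ESC, 43.1% and 52.7% in control ESC, 55.2% and 59.0% in paused TSC, and 66.0% and 58.6% in control TSC.

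Between the lineages, the control cells ask how ESC and TSC differ without the pause. miR-290a-3p was higher in control ESC, at 1086 ± 182 CPM against 402 ± 27.7 CPM in control TSC (SD, n = 2 each), a log2 fold change of 1.44 ± 0.45 (SE; edgeR adjusted p = 0.0025). It had 21 and 19 counts in control ESC against 30 and 7 in control TSC. Only 1 library of control TSC reached the level that the filter asks for. Here too, miR-290a-3p was thus tested through the ESC groups, where it is high. miR-291a-3p was lower, at 69992 ± 2693 CPM in control ESC against 117070 ± 54136 CPM in control TSC, a log2 fold change of −0.74 ± 0.30 (SE; edgeR adjusted p = 0.0188). These were the 2 members called, 1 in each direction, where 74.3% of all tested miRNAs were called, 33.5% higher and 40.8% lower. The call of miR-290a-3p was kept in all 17 alternatives, with edgeR or DESeq2 adjusted p of at most 0.0199.

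The difference in miR-291a-3p rested on the first library of control TSC, which held 155349 CPM. Without it the log2 fold change was 0.07 (edgeR adjusted p = 0.766), and the call was also lost without any 1 library of the other 3 groups (adjusted p 0.0582 to 0.181) and in DESeq2, in a range over 17 alternatives of 0.00209 to 0.766. miR-292a-3p had 20098 and 17766 CPM in control ESC against 13338 and 13362 CPM in control TSC, with no overlap, as for 84.5% of all tested miRNAs. Its log2 fold change was 0.50 ± 0.32 (SE), with an edgeR adjusted p of 0.135, and it was called in 12 of 17 alternatives with a positive sign in all of them. By edgeR the log2 fold changes of 0.31 for miR-293-3p, −0.46 for miR-294-3p and −0.39 for miR-295-3p were not called. miR-293-3p was called in 8 of 17 alternatives, including DESeq2 at an adjusted p of 0.00178, with a positive sign in all of them. miR-294-3p and miR-295-3p were called in 0 of 17. Their signs turned positive under total count, median-of-ratios scaling and scaling without the cluster.

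In paused cells miR-290a-3p was again higher in ESC, at 682 ± 23.4 CPM in paused ESC against 286 ± 62.7 CPM in paused TSC (SD, n = 2 each), a log2 fold change of 1.27 ± 0.46 (SE; edgeR adjusted p = 0.0088). No library of paused TSC reached the level that the filter asks for, so miR-290a-3p was tested in paused cells through the ESC groups, where it is high. It was the single member called, where 76.7% of all tested miRNAs were called, 37.4% higher and 39.3% lower. The call was lost without the second library of paused TSC (log2 fold change 1.25, edgeR adjusted p = 0.0645). The pause and lineage comparisons share libraries, so they are not independent of each other.

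The other members of paused cells were not called by edgeR, and all showed no overlap between paused ESC and paused TSC, as did 90.8% of all tested miRNAs. miR-294-3p had 84084 and 92319 CPM in paused ESC against 60387 and 56096 CPM in paused TSC, a log2 fold change of 0.60 ± 0.30 (SE; edgeR adjusted p = 0.0579) that passed in 16 of 17 alternatives. miR-292a-3p had 22184 and 26359 CPM in paused ESC against 17649 and 15906 CPM in paused TSC (log2 fold change 0.53 ± 0.31; edgeR adjusted p = 0.107) and passed in 12 of 17. miR-293-3p had 30514 and 38518 CPM in paused ESC against 51914 and 47961 CPM in paused TSC (log2 fold change −0.53 ± 0.30; edgeR adjusted p = 0.0968) and passed in 5 of 17. Over the 4 groups miR-292a-3p followed 1 order without overlap between neighbours, highest in paused ESC, then control ESC, paused TSC and control TSC. The lower control ESC library, at 17766 CPM, lay only just above the higher paused TSC library, at 17649 CPM. By edgeR miR-292a-3p was called neither between paused and control cells nor between the lineages.

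Arm use was also compared between the lineages. In paused cells, of the 6 hairpins of the members, diffSpliceDGE called 4, where 42.5% of the 40 hairpins were called. The ratio of 3p to 5p was lower in paused ESC for miR-293 (log2 change −1.82 ± 0.39, SE; adjusted p = 0.000162), miR-295 (−1.16 ± 0.33; 0.00363) and miR-291a (−1.15 ± 0.40; 0.0182). It was higher for miR-290a, at 1.59 ± 0.44 (adjusted p = 0.0022 from diffSpliceDGE), a hairpin whose 3p arm passed the filter through the ESC groups. The call of miR-290a was lost without the second library of paused TSC (adjusted p = 0.0985) and that of miR-291a without the first library of paused ESC (adjusted p = 0.175).

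Several 5p partners were called in the same comparison. By edgeR, 4 of the 6 were higher in paused ESC than in paused TSC, where 76.7% of all tested miRNAs were called, 37.4% higher. The log2 fold change was 1.29 for miR-293-5p (edgeR adjusted p = 6.71e-05) and −0.53 for its 3p arm. It was 0.99 for miR-295-5p (edgeR adjusted p = 0.00385) and −0.16 for its 3p arm. It was 0.87 for miR-291a-5p (edgeR adjusted p = 0.00557) and −0.28 for its 3p arm, and 0.67 for miR-294-5p (edgeR adjusted p = 0.0491) and 0.60 for its 3p arm. The signs of the 3p arms of miR-293, miR-295 and miR-291a were not fixed by these data: the main sign was kept in 15 of 17 alternatives for miR-293-3p, 8 of 17 for miR-295-3p and 12 of 17 for miR-291a-3p. Among control cells diffSpliceDGE called 7.5% of hairpins and, of the members, miR-290a alone, whose 3p arm passed the filter through the ESC groups. The 3p arm of miR-290a made up 0.878% and 1.19% of the hairpin's counts in control ESC, from 21 and 19 counts, against 0.223% and 0.329% in control TSC, from 30 and 7 counts. The log2 change of its ratio was 1.96 ± 0.43 (SE; adjusted p = 0.000838 from diffSpliceDGE), and its call was lost without the second library of control ESC (adjusted p = 0.0943) or the first of control TSC (0.162).

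The other arms of the cluster give the setting of these values. Of the 12 other arms listed, 8 were tested, and the arms of the antisense hairpins miR-290b and miR-292b had 0 counts in all 8 libraries. The 2 arms of miR-291b set ESC and TSC apart more than any member did. miR-291b-3p had 62.3 and 170 CPM in paused ESC, 410 and 320 CPM in control ESC, 22030 and 11552 CPM in paused TSC, and 24204 and 21308 CPM in control TSC. Its log2 fold change between control ESC and control TSC was −5.93 ± 0.46 (SE; edgeR adjusted p = 1.91e-33), where 40.8% of all tested miRNAs were called lower. miR-291b-3p passed the filter through the TSC groups, so between the lineages it could be called only as lower in ESC. It was also the only other arm called between paused and control ESC, at −1.70 ± 0.62 (edgeR adjusted p = 0.0262), where 19.4% of all tested miRNAs were called lower. That call came from 5 and 11 counts in the deeper paused ESC libraries and 9 and 5 in control ESC. Without the TSC groups this arm would not have been tested. Hairpin miR-291b lies between Mir292 and Mir293, inside the run of the members.

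The seed families related to the members were read in the same fits. Of the 10 arms of the miR-302 cluster with miR-367, 3 were tested, and all 3 were called lower in paused than in control ESC by edgeR: miR-302b-3p, miR-302d-3p and miR-367-3p. Only control ESC brought them past the filter, so this count could run no other way. miR-302b-3p, which shares the seed AAGUGCU with 3 members, had 3 and 0 counts in paused ESC against 11 and 17 in control ESC, whereas the lowest count of the 3 members with that seed was 3187 in paused ESC.

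All 6 members of the miR-17 seed family were tested. Between paused and control ESC edgeR called none of them, where 27.7% of all tested miRNAs were called. In TSC it called 2 of the 6 lower under the pause, miR-20b-5p and miR-106a-5p, beside 17% of all tested. For miR-20b-5p this came from 0 counts in both paused TSC libraries and 10 and 0 in control TSC. The difference of pause effects was also called for miR-20b-5p, at a log2 value of 5.40 (edgeR adjusted p = 0.0159), where 14.6% were called higher. Between the lineages 4 of 6 were called higher in ESC, both in control cells (miR-17-5p, miR-20a-5p, miR-20b-5p and miR-106a-5p) and in paused cells (miR-20a-5p, miR-20b-5p, miR-93-5p and miR-106a-5p). Of all tested miRNAs, 33.5% were called higher in ESC among control cells and 37.4% among paused cells. miR-106a-5p had 0 counts in both libraries of paused TSC and 7 and 1 counts in control TSC, so this miRNA and miR-20b-5p passed the filter through ESC and could be called only as higher there. miR-20b-5p had 15600 and 17990 CPM in paused ESC, 12579 and 15018 CPM in control ESC, 0 in both libraries of paused TSC, and 127 and 0 CPM in control TSC. The log2 fold change of miR-20b-5p between control ESC and control TSC was 7.06 ± 0.50 (SE; edgeR adjusted p = 2.81e-38).

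Over the 8 libraries the tested miRNA outside the cluster most like the mean of the 6 members was miR-143-3p, with a Pearson correlation of log2 CPM of 0.763, followed by miR-380-3p (0.747), miR-376b-3p (0.705), miR-154-3p (0.686) and miR-32-3p (0.683). Among the members, miR-291a-3p and miR-295-3p were most alike (0.949). The nearest member to miR-293-3p was miR-295-3p at 0.573, the nearest to miR-294-3p was also miR-295-3p at 0.336, and miR-290a-3p and miR-292a-3p were nearest to each other at 0.508. These correlations are a description over 8 libraries that share their scaling factors and differ in depth.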

How the data were processed

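The files hold raw counts, deposited by the authors as 1 whole number per mature miRNA arm, from reads placed on GRCm38, per the submitters' processing notes. The sources used here do not give the aligner, the counter, the trimming or how reads with several matching loci were treated. Per the labels' protocols, libraries were made with the SMARTer smRNA-seq kit for single-end sequencing. Counts were analysed with edgeR 4.0.16 and limma 3.58.1 in R 4.3.3: TMM scaling, filterByExpr (206 miRNAs kept, minimum count 10, about 369 CPM in at least 2 libraries), and a quasi-likelihood fit over the 4 groups with 4 residual degrees of freedom, a common dispersion of 0.0456 and infinite prior degrees of freedom, so the spread is pooled over miRNAs. Calls were made two-sided at an adjusted p under 0.05 over all tested miRNAs. Arm use was tested with diffSpliceDGE over 40 hairpins with both arms tested. The scripts were tested on simulated data. Alternatives were DESeq2 1.42.0, other scalings and filters, only the groups compared, every file counted, a replicate block and each library left out. Total counts ran from 13607 to 115492, and 3 counts, the limit that a count of 0 allows, were worth 37.4 to 192 CPM. Named were all 6 members, their 5p partners, called members of the related lists, and the nearest miRNAs by correlation. The members and lists were chosen with earlier results of these data known. Sequences and the positions printed with them are from RefSeq on GRCm38.p6. The order of the hairpins and their overlap with Nlrp12 are from the GENCODE annotation of GRCm38.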

Additional observations from a re-analysis of the deposited data

Results flagged for a closer look

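The effect of the pause on miR-294-3p differed between ESC and TSC, with a log2 difference of 1.06 (edgeR adjusted p = 0.0472). The median difference over all tested miRNAs was 0.33. The change of the miR-293 ratio of 3p to 5p under the pause also differed between ESC and TSC, with a log2 difference of −1.91 (adjusted p = 0.0369 from diffSpliceDGE). Both calls were lost without the filter on low counts and without some single libraries, as given above. With 2 libraries in each group, no library could be tested for standing apart from the others of its group.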

How the results depend on the processing

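Calls of single members depended on scaling. The median log2 fold change of all tested miRNAs with median of ratios, total count and TMM without the cluster was 0.11, −0.12 and 0.03 for paused against control ESC (−0.03 in the text), −0.14, 0.08 and −0.50 for paused against control TSC (−0.39), 0.23, −0.26 and 0.50 for the difference of pause effects (0.33), 0.29, 0.40 and 0.28 for control ESC against TSC (−0.23), and 0.42, 0.03 and 0.69 for paused ESC against TSC (0.01). The shares of the 3p pool do not depend on scaling. In the text, called members numbered 1 for paused against control ESC, 0 for paused against control TSC and 1 for the difference of pause effects. They numbered 2 for control ESC against TSC and 1 for paused ESC against TSC. The larger changes follow, and not every smaller one is listed.

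With DESeq2, called members numbered 2 for paused against control ESC, 2 for the difference of pause effects and 3 for paused ESC against TSC. For control ESC against TSC DESeq2 called 3, namely miR-290a-3p, miR-292a-3p and miR-293-3p, and not miR-291a-3p. With median-of-ratios scaling called members numbered 2 for paused against control ESC, 2 for the difference and 3 for paused ESC against TSC. With TMM computed without the cluster they numbered 0, 0 and 3. With every deposited file counted they numbered 4, 2 and 4, and 4 for control ESC against TSC. Without a filter and with a filter at 10 CPM they numbered 0, 0 and 3, and 1 for control ESC against TSC. With only the groups compared they numbered 2 for paused against control ESC, 1 for control ESC against TSC and 4 for paused ESC against TSC. With total count alone they numbered 2 for paused against control ESC, 1 for paused against control TSC and 4 for paused ESC against TSC. Hairpins of the members called for arm use (1, 0, 1, 1 and 4 in the text) numbered 0 for paused against control ESC, 0 for the difference and 2 for paused ESC against TSC without a filter, and 3 for control ESC against TSC with total count alone.

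The labels state no pairing by replicate number. Replicate differences correlated at −0.07 between the ESC groups and −0.18 between the TSC groups, so no shared replicate effect was seen. With 2 libraries in each group this cannot show that the libraries were not paired. With the replicate block, called members numbered 2 for paused ESC against TSC and hairpins called for arm use 0 for the difference of pause effects, and the arm ratio of miR-295 was −0.00905 in TSC. A crossed pairing in TSC, added after the data were seen, called 0 members.

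Values with the opposite sign belonged to members that were not called, except for miR-291a-3p in control ESC against TSC. For paused against control ESC these log2 values were 0.18 for miR-291a-3p and 0.16 for miR-295-3p without a filter, and 0.067 and 0.044 with a filter at 10 CPM. For paused against control TSC they were 0.048 for miR-290a-3p, 0.054 for miR-294-3p and 0.087 for miR-295-3p with total count alone, −0.065 for miR-293-3p with TMM computed without the cluster, and −0.019 for miR-292a-3p and −0.34 for miR-293-3p with a filter at 10 CPM. For the difference of pause effects they were −0.13 for miR-291a-3p, −0.51 for miR-292a-3p and −0.35 for miR-295-3p with total count, −0.050 and −0.053 for miR-292a-3p with median-of-ratios scaling and DESeq2, 0.0031 for miR-290a-3p with TMM computed without the cluster and 0.43 with a filter at 10 CPM. For control ESC against TSC they were 0.13 for miR-294-3p and 0.21 for miR-295-3p with total count, 0.049 and 0.13 with median of ratios, 0.047 and 0.13 with DESeq2, and 0.068 and 0.13 with TMM computed without the cluster. For paused ESC against TSC they were 0.12 for miR-291a-3p and 0.24 for miR-295-3p with median-of-ratios scaling and with DESeq2, 0.40 for miR-291a-3p, 0.16 for miR-293-3p and 0.51 for miR-295-3p with TMM computed without the cluster, 0.067 for miR-291a-3p and 0.18 for miR-295-3p without a filter, 0.36 for miR-291a-3p, 0.12 for miR-293-3p and 0.48 for miR-295-3p with a filter at 10 CPM, and 0.028 for miR-295-3p with only the groups compared.

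Each library was also left out in turn, the lone library of its group being assumed to vary like the others. For paused against control ESC, 0 to 2 members and 0 to 1 hairpins were called, and log2 values ran from −0.15 to 0.22 for miR-291a-3p, −0.10 to 0.35 for miR-295-3p and −0.053 to 0.21 for the arm ratio of miR-292a. For paused against control TSC, 0 to 1 members were called, and values ran from −0.33 to 0.066 for miR-290a-3p, −0.54 to 0.22 for miR-291a-3p, −0.21 to 0.16 for miR-294-3p, −0.24 to 0.28 for miR-295-3p, −0.58 to 0.0031 for the arm ratio of miR-290a and −0.050 to 0.10 for that of miR-295. For the difference of pause effects, 0 to 2 members and 0 to 1 hairpins were called, and values ran from −0.30 to 0.50 for miR-291a-3p, −0.33 to 0.19 for miR-292a-3p, −0.38 to 0.42 for miR-295-3p and −0.64 to 0.15 for the arm ratio of miR-291a. For control ESC against TSC, 1 to 3 members and 0 to 2 hairpins were called, and values ran from −0.72 to 0.074 for miR-291a-3p, −0.34 to 0.11 for miR-294-3p, −0.37 to 0.28 for miR-295-3p and −0.078 to 0.18 for the arm ratio of miR-293. For paused ESC against TSC, 1 to 4 members were called, and values ran from −0.22 to 0.093 for miR-295-3p and −0.22 to 0.061 for the arm ratio of miR-294. The share of counts on the 6 members differed by −0.876 to 5.28 percentage points between paused and control TSC and by −1.21 to 2.55 between paused ESC and TSC. The causes of these changes were not tested. Depth limits miR-290a-3p most, with 7 to 56 counts per library.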
